A study of Drosophila melanogaster with 24 samples.

Results

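Transcripts of 8 secreted proteins of the fly fat body were followed in single brains of flies with and without a traumatic brain injury (TBI). The 8 genes are Yp1, Yp2 and Yp3, fit, Apoltp, apolpp, Tsf1 and Lsp2. They were taken by symbol from the deposited count table, where all 8 were found among 16995 genes. The flies were adult, mated w1118, a white-eyed laboratory strain. In each sex there were uninjured controls and flies whose brains were taken 1, 2 or 4 hr after a single strike of a spring device that throws the whole vial of flies, so that the trauma reaches the full body. Each of the 8 groups held 3 libraries, each from the brain of a separate fly, and 24 libraries were read in all. Transcripts were measured by QuantSeq, which reads the 3′ end of each polyadenylated transcript, so that levels of different genes can be set side by side without a correction for length.

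The fat body is the fly's counterpart of liver and adipose tissue, and a part of it fills the head capsule around the brain. It secretes proteins into the hemolymph, the open circulation that bathes the brain. Yolk proteins are made by the fat body of adult females and by the follicle cells of the ovary, and growing oocytes take them up from the hemolymph. Their genes are switched by the sex determination pathway through the transcription factor Doublesex, so that high levels are textbook markers of female fat body. The lipoproteins carry lipids between gut, fat body and other organs, transferrin carries iron, and larval serum proteins store amino acids.

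Total counts per library ran from 46943 to 1769669 with a median of 536672. Normalised to these totals as CPM, 1 count stood for 0.565 to 21.3 CPM depending on the library, and the limit that a count of 0 allows, 3 counts, was worth 1.70 to 63.9 CPM. These limits and the intervals given below cover counting error only. None of 276 pairs of libraries held identical counts, and the 24 pairs from the same group all differed beyond sampling noise. The labels for female flies were checked with roX1, a non-coding RNA of the male dosage compensation complex. After the TMM scaling described below, it lay at 706 to 1013 CPM in the 12 male-labelled libraries. In 10 of the 12 female-labelled ones it lay at 712 to 1249 CPM. The other female-labelled libraries, replicate 2 at 2 hr and replicate 2 at 4 hr, had 6.02 and 78.1 CPM. By library totals alone the ranges were 609 to 1099 CPM and 572 to 1299 CPM, and the other libraries had 3.93 and 66.7 CPM. roX1 thus goes against most of the female labels, and for that reason groups are named female-labelled or male-labelled.

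Levels below are CPM after TMM scaling, which corrects the library totals for differences in composition. Differences are log2 fold changes (log2FC) with their standard errors (SE) from edgeR's quasi-likelihood test. A gene was called at an adjusted p under 0.05 (Benjamini-Hochberg, over all genes tested) with |log2FC| over 1. In whole brains, fewer cells of a type and less RNA per cell cannot be told apart.

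By median level over the 24 libraries the order was apolpp (3005 CPM), Yp1 (1996 CPM), Lsp2 (1239 CPM), Tsf1 (780 CPM), Yp2 (598 CPM), Yp3 (363 CPM), Apoltp (53.5 CPM) and fit, whose median was 0. The ranges of neighbours in this order overlapped in every case, and in female-labelled libraries alone Yp1 (median 3196 CPM) lay above apolpp (2915 CPM). The genes differed widely in how much they varied from brain to brain. The highest library exceeded the lowest 77.1-fold for Yp1, 129-fold for Yp2 and 130-fold for Yp3, against 2.84-fold for Tsf1, 4.53-fold for Lsp2, 13.5-fold for Apoltp and 13.9-fold for apolpp.

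**Figure D1:**
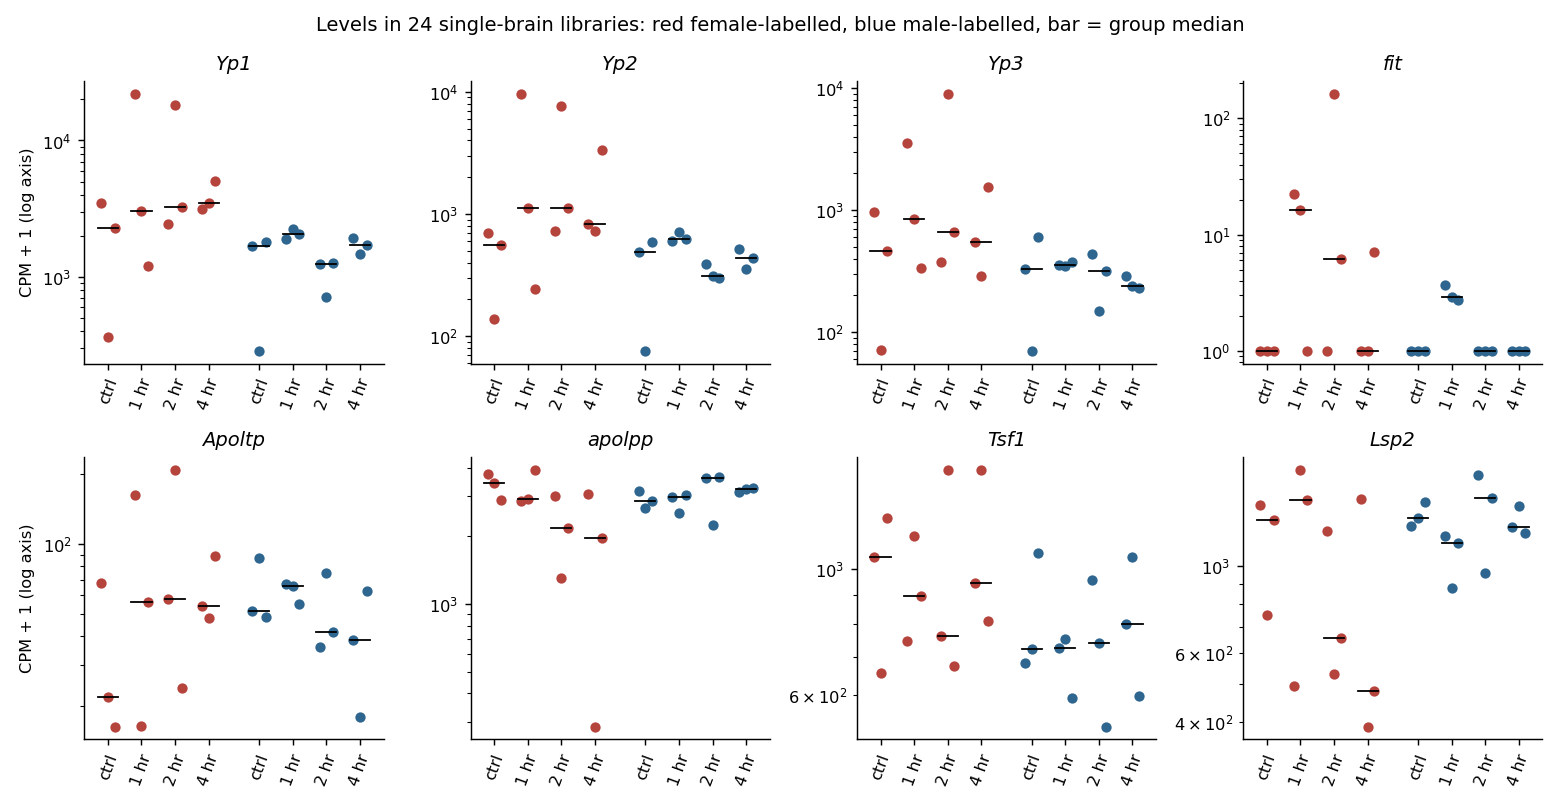
Level of each of the 8 genes in every library, as CPM + 1 on a log axis that is scaled for each panel, by group (ctrl, 1, 2 and 4 hr after TBI). Red points are female-labelled and blue points male-labelled libraries, with 3 per group drawn in the order of their replicate numbers, and the bar is the group median. Yp1, Yp2 and Yp3 share their high points at 1 hr and 2 hr and their low points in the controls, whereas apolpp and Lsp2 have low points among the injured female-labelled libraries.

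Yp1, Yp2 and Yp3 encode the 3 yolk proteins of Drosophila. All are X-linked, and Yp1 and Yp2 are neighbours on opposite strands. In female-labelled controls Yp1 stood at 3468, 362 and 2272 CPM in replicates 1 to 3. It stood at 21961, 3038 and 1209 CPM at 1 hr, at 2440, 18350 and 3267 CPM at 2 hr, and at 3125, 3452 and 5065 CPM at 4 hr. A single library at 1 hr and a single library at 2 hr therefore lay far above all others, and the control replicate 2 lay far below.

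In male-labelled libraries Yp1 was read in all 12, at 1669, 285 and 1813 CPM in controls. The values were 1896, 2234 and 2056 CPM at 1 hr, 1243, 713 and 1256 CPM at 2 hr, and 1937, 1470 and 1698 CPM at 4 hr. Here too the lowest value was that of control replicate 2, and no library came near the highest female-labelled ones.

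Yp2 followed the same libraries. Its female-labelled values were 696, 137 and 553 CPM in controls, 9605, 1126 and 243 CPM at 1 hr, 718, 7673 and 1115 CPM at 2 hr, and 825, 721 and 3309 CPM at 4 hr. Its male-labelled values were 488, 74.7 and 592 CPM in controls, 603, 714 and 620 CPM at 1 hr, 391, 311 and 298 CPM at 2 hr, and 518, 355 and 435 CPM at 4 hr. At 2 hr and at 4 hr all 3 female-labelled libraries were above every female-labelled control, and at 1 hr 1 of the 3 was not.

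Yp3 was highest in a different library from the other yolk genes. Its female-labelled values were 963, 70.9 and 460 CPM in controls, 3547, 848 and 332 CPM at 1 hr, 373, 8964 and 664 CPM at 2 hr, and 544, 288 and 1558 CPM at 4 hr. Its male-labelled values were 326, 69.2 and 604 CPM in controls, 354, 346 and 372 CPM at 1 hr, 435, 148 and 318 CPM at 2 hr, and 290, 237 and 229 CPM at 4 hr. Its groups overlapped with their controls at every time and in both sex labels.

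Summed, the yolk genes gave 2.81% of all counts in the female-labelled 1 hr replicate 1 (95% exact binomial interval 2.79 to 2.84%) and 2.28% in the 2 hr replicate 2 (2.26 to 2.31%). The next highest library, the female-labelled 4 hr replicate 3, had 0.849%, and the median over all 24 was 0.307%. The lowest shares were 0.0593% in female-labelled control replicate 2 and 0.0370% in male-labelled control replicate 2. The shallowest of these 5 libraries in yolk reads held 155 of them, so that the gap between high and low lies far outside counting error.

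The mix of the 3 transcripts was steadier than their sum. Yp1 made up 51.0 to 77.4% of the yolk reads, with a median of 67.2%. Yp2 made up 13.6 to 33.3%, with a median of 19.7%. Yp3 made up 6.47 to 25.6%, with a median of 12.9%. In male-labelled libraries alone the Yp1 share kept to 60.1 to 71.9%.

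The yolk-rich libraries did not share a mix. Yp3 had 10.1% of the yolk reads in the 1 hr replicate 1 (9.83 to 10.4%) and 25.6% in the 2 hr replicate 2 (25.2 to 26.1%), a difference beyond counting error at 47364 and 34858 yolk reads. The 4 hr replicate 3 stood out by Yp2, with 33.3% (32.4 to 34.2%). Among the 4 hr libraries replicate 2 held the highest Yp1 share of all, 77.4% (76.4 to 78.4%).

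**Figure D2:**
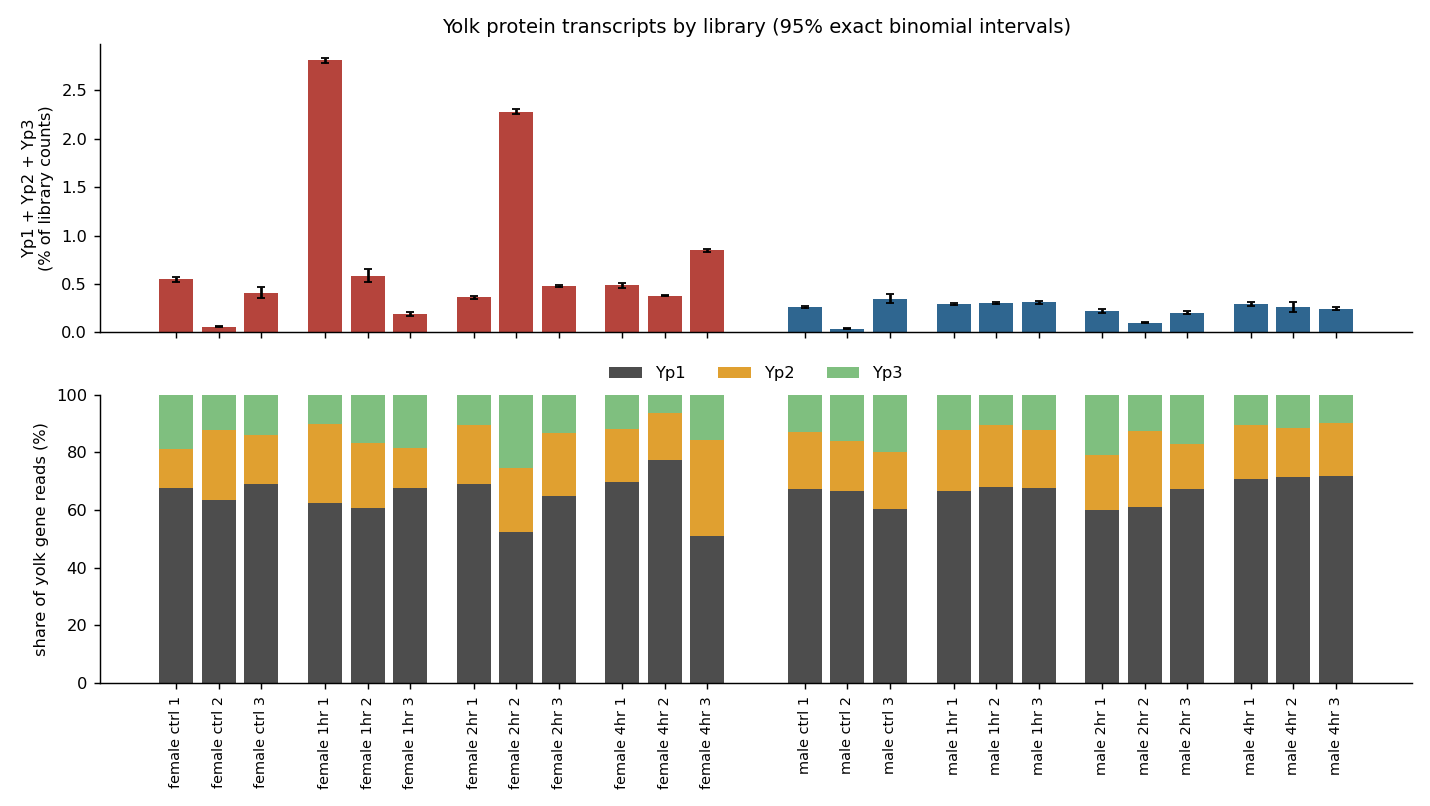
Upper panel, Yp1, Yp2 and Yp3 reads summed, as a percent of all counts in each of the 24 libraries, with 95% exact binomial intervals (red female-labelled, blue male-labelled). Lower panel, the share of each gene among those reads in percent. The female-labelled 1 hr replicate 1 and 2 hr replicate 2 reach 2.81% and 2.28% of counts, and their Yp3 shares are 10.1% and 25.6%.

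The first question was whether yolk transcripts differ between flies labelled female and male. Over the 4 conditions, with 12 libraries a label, Yp1 was higher in female-labelled brains by a log2FC of 1.73 (SE 0.43), Yp2 by 1.99 (SE 0.49) and Yp3 by 1.99 (SE 0.51). For Yp1 10 of 12 female-labelled libraries were above every male-labelled one, for Yp2 8 of 12 and for Yp3 6 of 12, but no gene of the 8 separated the labels fully, as 0% of the 5462 genes tested did. Ordered by unadjusted p in edgeR, Yp2 had rank 2, Yp1 rank 3 and Yp3 rank 4 of 5462 genes, behind Dro, the gene of the antibacterial peptide drosocin.

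None of the 3 was called in edgeR, where the adjusted p was 0.957 for each and 0% of genes were called. A looser rule, an unadjusted p under 0.05 together with |log2FC| over 1, was met by 3 of the 7 tested members in this comparison, against 2.45% of all genes. DESeq2, run on the same genes, called 4 genes, the 3 yolk genes with adjusted p of 0.0124 (Yp1), 0.0116 (Yp2) and 0.0124 (Yp3) and Dro with 0.00670. edgeR without its filter on low counts also called the 3 yolk genes (adjusted p 6.62e-06 to 1.39e-05), so that the call rested on the test and on the filter. The size of the difference rested on a few brains. Without the 2 libraries with little roX1 the log2FC was 1.38 for Yp1, 1.63 for Yp2 and 1.43 for Yp3. Without the female-labelled 1 hr replicate 1 and 2 hr replicate 2, left out after the values had been seen because they were richest in yolk reads, the log2FC was 0.84 for Yp1, 0.92 for Yp2 and 0.95 for Yp3. Leaving out 1 library at a time, it ran from 1.19 to 1.83 for Yp1, from 1.34 to 2.09 for Yp2 and from 1.31 to 2.13 for Yp3.

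In the uninjured flies alone the labels were not told apart by these genes. The log2FC of female-labelled over male-labelled controls was 0.70 (SE 0.85) for Yp1, 0.26 (SE 0.97) for Yp2 and 0.61 (SE 1.01) for Yp3, with adjusted p of at least 0.999 in edgeR. No member met the looser rule (1.96% of genes) and all 7 tested members overlapped (7.36% of genes did not). Control replicate 2 was the lowest for each of the 3 genes under both labels. At 1 hr the 2 labels overlapped for all 7 tested members, against 10.4% of genes whose groups did not overlap. At 2 hr, Yp1 and Yp2 did not overlap between the labels (6.02% of genes), and at 4 hr Yp1, Yp2 and apolpp did not (11.7% of genes).

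**Figure D3:**
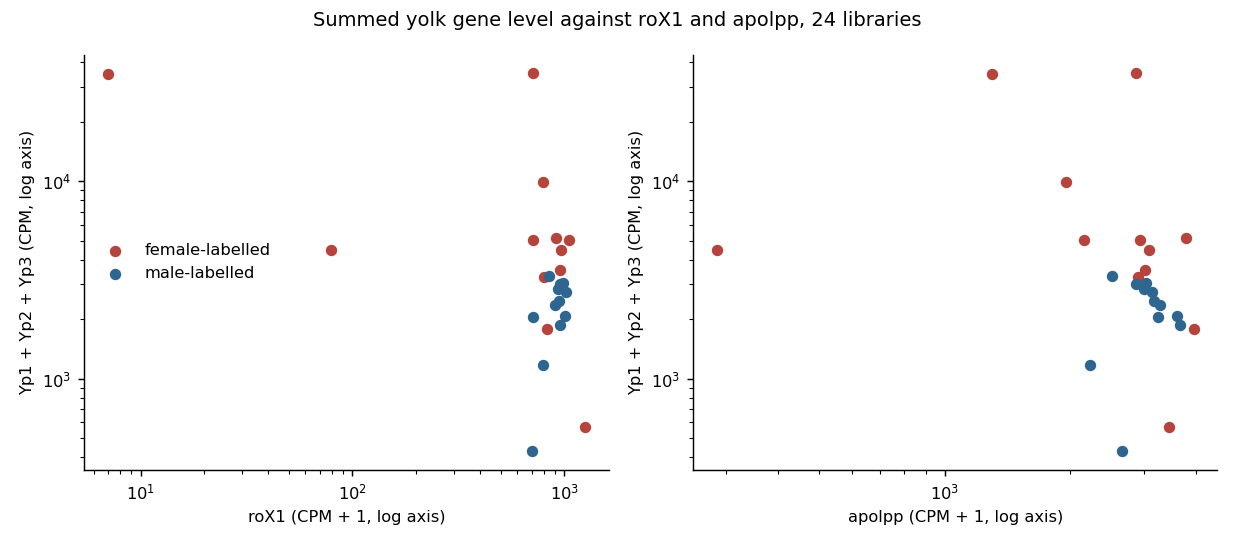
Summed CPM of Yp1, Yp2 and Yp3 (log axis) against roX1 (left) and apolpp (right), each as CPM + 1 on a log axis, in 12 female-labelled (red) and 12 male-labelled (blue) libraries. At left, the female-labelled libraries with little roX1 (6.02 and 78.1 CPM) have 34987 and 4462 CPM of yolk transcripts, and the highest yolk level of all is in a library with 714 CPM of roX1. At right, the 3 libraries richest in yolk reads lie below the median of apolpp, 3005 CPM.

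Whether the yolk level followed roX1 over the libraries was not tested. The 3 female-labelled libraries richest in yolk transcripts had 714, 6.02 and 790 CPM of roX1. Each of these lay below the female-labelled roX1 median of 812 CPM, but single libraries differed. Of the libraries with little roX1, the 2 hr replicate 2 had 34987 CPM of yolk transcripts and the 4 hr replicate 2 had 4462 CPM. The latter is close to the female-labelled median of 4753 CPM. The library richest in yolk transcripts, with 35112 CPM, had 714 CPM of roX1, inside the male-labelled range. The female-labelled control replicate 2, with the lowest yolk level of its label (569.8 CPM), had the most roX1 of all (1249 CPM).

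The second question was whether TBI changed yolk transcripts. In female-labelled libraries against their controls at 1 hr the log2FC was 2.09 (SE 0.99) for Yp1, 2.99 (SE 1.18) for Yp2 and 1.66 (SE 1.16) for Yp3. None was called in edgeR (adjusted p 1.000 for each). The looser rule was met by 1 of the 7 members other than fit, Yp2, against 1.66% of genes. All 8 members overlapped with control, against 6.91% of genes that did not. Without the 1 hr replicate 1 the log2FC fell to 0.04 for Yp1, 0.54 for Yp2 and 0.22 for Yp3, so that 1 library carried the difference. Limma-voom with sample weights gave 0.26, 0.70 and 0.34, and edgeR without its filter on low counts called Yp2 (adjusted p 0.00101).

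At 2 hr the log2FC was 1.93 (SE 0.99) for Yp1, 2.74 (SE 1.17) for Yp2 and 2.69 (SE 1.20) for Yp3. Again none was called in edgeR, with adjusted p of 0.780, 0.626 and 0.647. The looser rule was met by 2 of the 7 members other than fit, Yp2 and Yp3, against 7.13% of genes. It was also met by fit, which is not counted with them because it passed the filter on low counts only through the libraries where it was high. Only Yp2 lay wholly above its controls, against 14.7% of genes that did not overlap in one direction or the other. Without the 2 hr replicate 2 the log2FC was 0.50 for Yp1, 1.02 for Yp2 and 0.08 for Yp3. Limma-voom gave 0.39, 0.90 and 0.02, and edgeR without its filter called all 3 (adjusted p 0.000904 to 0.0345).

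At 4 hr the log2FC was 0.92 (SE 0.96) for Yp1, 1.81 (SE 1.13) for Yp2 and 0.67 (SE 1.13) for Yp3, with an adjusted p of 0.929 for each in edgeR. No member met the looser rule, against 5.09% of genes. Yp2 again lay wholly above its controls, and 11.8% of genes did not overlap with control in one direction or the other. Without the 4 hr replicate 3 the log2FC of Yp3 turned to -0.26 and that of Yp2 was 0.75.

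In male-labelled libraries the yolk genes were close to one another from fly to fly at 1 hr, where Yp1 averaged 2062 ± 169 CPM (SD, n = 3) against 1255 ± 844 CPM in controls, and Yp2 averaged 646 ± 60.0 CPM against 385 ± 274 CPM. All 3 libraries at 1 hr were above every control for both. The log2FC was 0.71 (SE 0.45) for Yp1 and 0.77 (SE 0.47) for Yp2, neither called in edgeR (adjusted p 0.999). Without control replicate 2 these values were 0.25 and 0.27. Of the 7 tested members, 3 did not overlap with control at 1 hr (Yp1, Yp2 and Lsp2), against 9.21% of genes, and 0 met the looser rule, against 0.916% of genes. At 2 and 4 hr all 7 tested members overlapped with control (against 4.22 and 7.49% of genes that did not). Of these 7, 0 met the looser rule (against 1.77 and 1.32%).

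Whether the change after TBI differed between the sex labels was tested as a difference of the log2FCs. At 2 hr this was 2.23 (SE 1.20) for Yp1, 3.01 (SE 1.38) for Yp2 and 2.90 (SE 1.43) for Yp3, higher in female-labelled flies, with adjusted p of 0.850 in edgeR. The looser rule was met by 1 of the 7 tested members, Yp2, against 5.44% of genes. The female-labelled 2 hr replicate 2 carried this too, and without it the values were 0.75, 1.23 and 0.22. At 1 and 4 hr it was met by 0 of the 7, against 1.72 and 6.35% of genes.

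**Figure D4:**
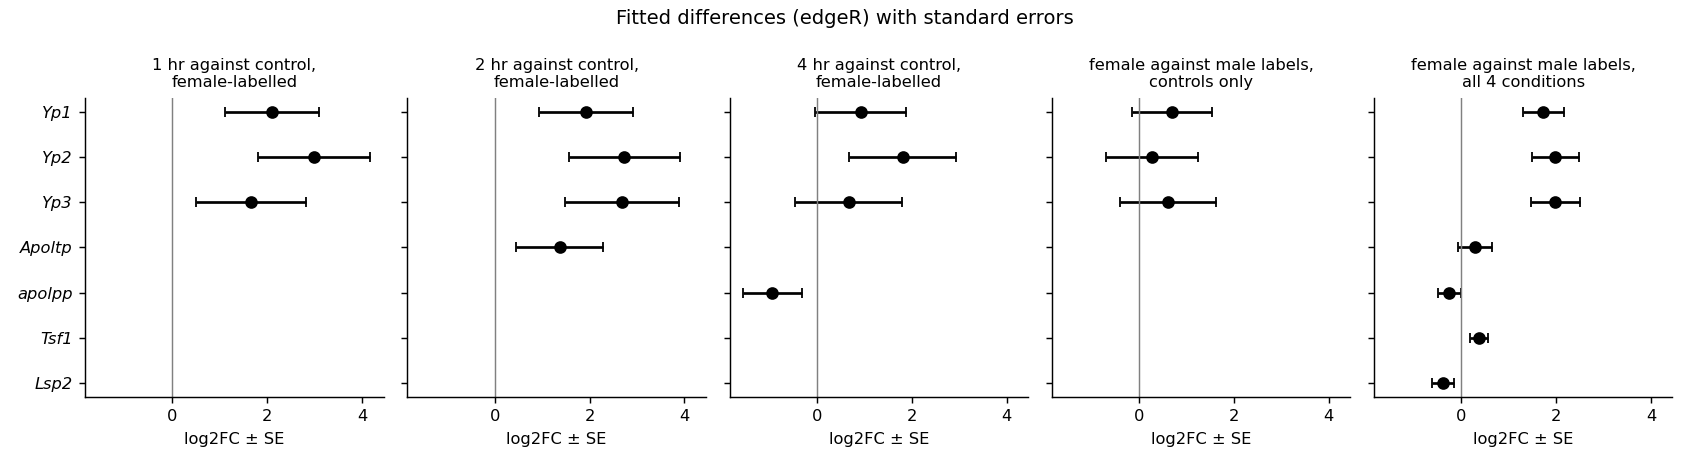
Log2 fold changes (points) with standard errors (bars) from edgeR's quasi-likelihood test, for the values given in the text. The first 3 panels compare female-labelled brains 1, 2 and 4 hr after TBI with female-labelled controls (3 libraries each), and the last 2 compare female with male labels in controls (3 each) and over all 4 conditions (12 each). The yolk genes lie at 1.73, 1.99 and 1.99 in the last panel, each more than 3 SE from 0 but not called (edgeR adjusted p 0.957). The control panel draws the 3 yolk genes only, and their bars cross 0.

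The libraries with the most yolk reads also differed in markers of other cells. In the female-labelled 2 hr replicate 2 the 14 neuronal markers, all of which were read, summed to 789 CPM, the lowest of all libraries, against 4738 to 5186 CPM in the female-labelled controls. In the 1 hr replicate 1 they summed to 2673 CPM. The other libraries at 1 hr had 4534 and 5826 CPM. Low neuronal sums were not confined to yolk-rich libraries. The female-labelled 4 hr replicate 2, with 4462 CPM of yolk transcripts, had 1720 CPM. The male-labelled control replicate 2, which had the lowest yolk share of all, had 2770 CPM. A list of 17 other fat body genes for lipid metabolism and secreted factors, all read, summed to 4538 CPM in the 2 hr replicate 2, the highest of all libraries, but to 2464 CPM in the 1 hr replicate 1, inside the range of the female-labelled controls (2151 to 3369 CPM). Its genes did not move as one. Lsd-2, which encodes a lipid droplet protein, had its lowest level of all libraries, 84.3 CPM, in the 2 hr replicate 2, and at 2 hr 7 of the 13 tested genes were higher and 6 lower than in control. Photoreceptor markers summed to 15686 CPM in the 2 hr replicate 2, against 5047 to 9597 CPM in female-labelled controls. They were nearly as high, at 15063 CPM, in the 2 hr replicate 3, where yolk genes gave only 0.480% of counts. Glia and muscle markers summed to 1360 and 1785 CPM in the 2 hr replicate 2, each the lowest of all libraries. In the 1 hr replicate 1 these 3 lists summed to 7018, 1713 and 5346 CPM. Transcripts of 12 ovary and eggshell genes summed to between 0 and 23.1 CPM, with 7 of them never read (Cp36, Cp38, Vm32E, Vm34Ca, dec-1, nos and vas) and the highest sum in the 2 hr replicate 2. The part of these differences in the yolk result was not tested.

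fit (female-specific independent of transformer) encodes a small secreted protein of the head fat body that acts in flies as a satiety signal after protein feeding. It was the rarest member, with 210 reads in all. In the reference annotation it overlaps CR45046 on the same strand and CG31465 on the opposite strand, each with 0 counts. Whether these overlaps lowered the count of fit was not tested. No female-labelled control and no male-labelled control held a read. After TBI, female-labelled flies had 29 and 1 reads in replicates 1 and 2 at 1 hr (21.5 and 15.4 CPM), 161 and 7 reads in replicates 2 and 3 at 2 hr (162 and 5.21 CPM), and 7 reads in replicate 3 at 4 hr (6.11 CPM). The other female-labelled libraries after TBI had none. Male-labelled flies had 2, 2 and 1 reads at 1 hr (2.70, 1.93 and 1.75 CPM) and none later. The 2 libraries with the most fit reads were also the 2 richest in yolk reads.

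Pooled over the 3 libraries of a group, fit was at least 7.58-fold higher at 1 hr and at least 23.7-fold higher at 2 hr than in female-labelled controls, whose floor of 3 reads over the group is 2.02 CPM by library size. These folds allow for counting error and not for the spread between flies. At each time 1 library held most of the reads, the 1 hr replicate 1 (29 of 30) and the 2 hr replicate 2 (161 of 168). The control floor rests mainly on the depth of control replicate 2, which had the lowest yolk share of its label (0.0593%). At 4 hr and in male-labelled flies at 1 hr both groups were at about the floor. fit was kept by the filter on low counts in the female-labelled fit alone, and there only because of the libraries where it was high, so that its fitted fold change is not given.

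apolpp and Apoltp encode the apolipoproteins of the hemolymph. apolpp gives the core of lipophorin, the main lipid carrier of the hemolymph, and Apoltp the lipid transfer particle that loads it. apolpp had the highest median of the members over all 24 libraries and was the most even in male-labelled ones, at 2226 to 3660 CPM with a median of 3085 CPM. In female-labelled libraries it stood at 3782, 3433 and 2901 CPM in controls, 2864, 2930 and 3941 CPM at 1 hr, 3020, 1295 and 2159 CPM at 2 hr, and 3080, 284 and 1951 CPM at 4 hr. The lowest 2 values belong to the libraries with little roX1.

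At 4 hr the log2FC of apolpp against control was -0.94 (SE 0.61, edgeR adjusted p 0.929), and its difference from the male-labelled change was -1.08 (SE 0.67, adjusted p 0.760). Without the 4 hr replicate 2 these were -0.43 and -0.56. At 4 hr all 3 female-labelled libraries were below every male-labelled one, which averaged 3221 ± 71.1 CPM (SD, n = 3). The margin was narrow, 3080 against 3141 CPM, and 11.7% of genes did not overlap in one direction or the other. Over all 4 conditions the labels differed by a log2FC of -0.25 (SE 0.24, edgeR adjusted p 0.957), and by -0.05 without the 2 libraries with little roX1. Zyx, which overlaps apolpp on the opposite strand in the reference annotation, has 219 counts in all against 37834 for apolpp. The strand setting of the authors' counting is not stated, so reads of this pair cannot be told apart.

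Apoltp was about the level of a few counts in the shallow libraries, with 1114 reads in all. Its female-labelled values were 66.8, 21.0 and 15.4 CPM in controls, 161, 15.4 and 55.3 CPM at 1 hr, 56.7, 208 and 23.1 CPM at 2 hr, and 53.0, 47.0 and 88.1 CPM at 4 hr. The highest values, 161 and 208 CPM, were in the libraries richest in yolk reads. Male-labelled libraries lay at 16.9 to 85.8 CPM. The log2FC at 2 hr in female-labelled flies was 1.37 (SE 0.91, edgeR adjusted p 0.855), and 0.14 without the 2 hr replicate 2. Between the labels over all conditions it was 0.29 (SE 0.36, edgeR adjusted p 0.957).

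Tsf1 encodes transferrin 1, the iron carrier of the hemolymph, and over all 24 libraries was the member with the smallest range. Among male-labelled libraries apolpp (1.64-fold from lowest to highest) and Lsp2 (1.94-fold) ranged less than Tsf1 (2.03-fold). It ran from 655 to 1494 CPM with a median of 918 CPM in female-labelled and from 526 to 1066 CPM with a median of 731 CPM in male-labelled libraries. The highest values, 1494 CPM at 2 hr and 1492 CPM at 4 hr, were again the replicate 2 libraries with little roX1. The label difference over all conditions was a log2FC of 0.38 (SE 0.19, unadjusted p = 0.0569 and adjusted p = 0.957 in edgeR), with 4 of 12 female-labelled libraries above every male-labelled one. Without the 2 libraries with little roX1 it was 0.19. Fer1HCH and Fer2LCH, the ferritin subunits that store iron, averaged 829 and 1309 CPM over the 24 libraries, and Fer1HCH reached its highest level, 2008 CPM, in the female-labelled 4 hr replicate 2.

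Lsp2 encodes a larval serum protein, a hexamerin that is also made in the adult. It was read in every library, at 388 to 1758 CPM with a median of 988 CPM under the female label and at 878 to 1699 CPM with a median of 1259 CPM under the male label. Its female-labelled values were 1427, 750 and 1305 CPM in controls, 494, 1758 and 1468 CPM at 1 hr, 1225, 529 and 654 CPM at 2 hr, and 1478, 388 and 480 CPM at 4 hr. The lowest 4 values were those of the 3 libraries richest in yolk reads and of the 4 hr replicate 2.

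In male-labelled flies Lsp2 averaged 1069 ± 168 CPM at 1 hr against 1348 ± 98.7 CPM in controls (SD, n = 3 each), with all 3 libraries below every control. The log2FC was -0.37 (SE 0.23, edgeR adjusted p 0.999). Over all conditions the labels differed by -0.38 (SE 0.23, edgeR adjusted p 0.957), and 6 of 12 female-labelled libraries lay below every male-labelled one. Without the 2 libraries with little roX1 this was -0.24. Among the other larval serum and storage protein genes, Lsp1beta averaged 99.9 CPM over the 24 libraries. Lsp1alpha, Lsp1gamma and Fbp2 averaged 2.18, 0.0403 and 1.43 CPM, and Fbp1 had no read.

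How the members moved together was measured over the libraries on log2(CPM + 1), for 28 pairs with permutation p-values adjusted over the pairs. Groups, depth and scaling are shared by the points of every pair. Over all 24 libraries 9 pairs passed by Spearman's rho, 7 positive and 2 negative, and 11 by Pearson's r. The share of pairs of other genes that pass was not computed. These counts, and those within a sex label, therefore do not show that the members are more closely linked than other genes. Yp1 and Yp2 were the tightest (r = 0.97, rho = 0.95, permutation adjusted p = 7e-05 and 0.00014, both from the smallest p that the permutations could give, 1e-05). Without the 2 libraries farthest from the Yp1 median r was 0.93. Yp1 and Yp3 gave r = 0.94 and rho = 0.79, and Yp2 and Yp3 r = 0.94 and rho = 0.81. With fit, which was read in only 8 of the 24 libraries, Yp2 gave r = 0.81 and rho = 0.73.

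The lipoprotein gene apolpp and the storage protein gene Lsp2 also varied together. Each was closer to genes outside the members, with rho up to 0.96 for apolpp and 0.92 for Lsp2. apolpp and Lsp2 gave r = 0.71 and rho = 0.65 (permutation adjusted p = 9.33e-05 and 0.00482), and r = 0.64 without the 2 farthest libraries. The 2 negative pairs that passed by rho were Yp2 with apolpp (rho = -0.56, permutation adjusted p = 0.0156) and fit with apolpp (-0.54, 0.0234). By r these pairs stood at -0.28 and -0.22 and did not pass, and within a sex label no negative pair passed by rho. Tsf1 passed with no other member by rho, and by r with apolpp only (r = -0.51, but 0.08 without the 2 farthest libraries).

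Within a sex label fewer pairs passed. In the 12 female-labelled libraries these were 7 by rho, all positive. They comprised the 3 yolk pairs (rho 0.82 to 0.83), fit with Yp2 (0.88) and with Yp3 (0.81), Yp1 with Apoltp (0.73), and apolpp with Lsp2 (0.76). fit was read in only 5 of the 12, and the rest of its values were tied at 0. In the 12 male-labelled libraries Yp1 and Yp2 alone passed (rho = 0.94, permutation adjusted p = 0.00084). There r for Yp1 and Yp3 was 0.86, but 0.08 without the 2 farthest libraries, so that it rested on those libraries, and rho was 0.50 (permutation adjusted p = 0.267).

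**Figure D5:**
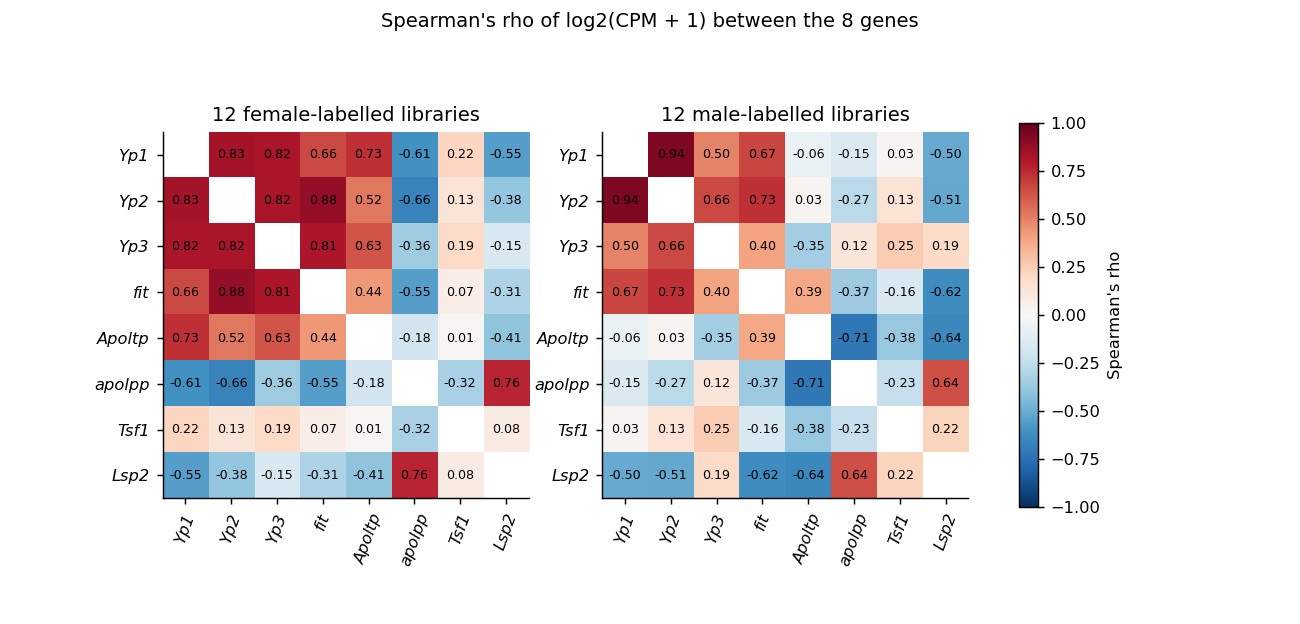
Spearman's rho of log2(CPM + 1) between the 8 genes, over the 12 female-labelled (left) and 12 male-labelled (right) libraries, from -1 (blue) to 1 (red), with the value in each cell. Yp1 and Yp2 stand at 0.83 and 0.94 and apolpp with Lsp2 at 0.76 and 0.64, while Yp1 with Yp3 stands at 0.82 at left and 0.50 at right.

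Other genes of the yolk and lipid pathways were taken from lists. Of 17 regulators of the yolk genes, among them the sex determination genes dsx, tra and Sxl, the ecdysone receptor EcR and the juvenile hormone receptors Met and gce, 12 were tested between the labels. None was called in edgeR or met the looser rule, which 2.45% of all genes met. Of the 12, 5 were higher and 7 lower in female-labelled flies. Their median log2FC was -0.08 against -0.03 over all genes tested. Of 6 genes for lipoprotein and yolk uptake, which include the yolk receptor gene yl and the lipophorin receptors LpR1 and LpR2, 4 were tested. All 4 were lower (median -0.32), and again none was called or met the looser rule. The list summed to 126 CPM in the female-labelled 2 hr replicate 2, against 474 to 1387 CPM in the others.

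Of the 17 fat body genes for lipid metabolism and secreted factors, 13 were tested, with 7 higher and 6 lower between the labels and a median of 0.01. A list of head fat body genes with sex-related expression other than the yolk genes held takeout (to), sxe2 and Cyp4d21. They averaged 77.7, 53.6 and 2.36 CPM over the 24 libraries, and the list set no direction for them. Of these 3, 2 were tested between the labels, 1 higher and 1 lower, and neither was called or met the looser rule. Against control at 2 hr in female-labelled flies, 2 of 13 tested fat body genes and 1 of 6 iron genes met the looser rule with higher levels, beside 7.13% of all genes in either direction. So did 6 of 15 photoreceptor and 2 of 10 glia markers, and none of these list genes was called in edgeR.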

How the data were processed

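Per the labels and the study's methods, each library was made from a single brain, so p-values measure the spread between these libraries. The authors' deposited table holds raw read counts of 16995 genes in 24 libraries, made from QuantSeq 3′ FWD reads with CASAVA 1.8.2, STAR 2.4 (dm3) and HTSeq (version, annotation and strand setting not stated). Deposited comparison tables (edgeR 3.22.3 fold changes and p-values) were not used. R 4.3.3 and edgeR 4.0.16 were used for quasi-likelihood tests of the counts, with TMM scaling, filterByExpr and group means without a replicate block. The 12 libraries of a sex label served the comparisons with control (5918 and 4474 genes), and all 24 the comparisons of labels (5462 genes). The test was tried on simulated data. Correlations used log2(CPM + 1), a pseudocount of 1 CPM and 100000 permutations in Python 3.11 with scipy 1.17.1, numpy 2.4.6 and pandas 2.3.3. Alternatives were DESeq2 1.42.0, limma-voom 3.58.1 with sample weights, RLE and plain library size, no filter, a replicate block, other pseudocounts (0.5 and 10 CPM), the exclusion of female-labelled 2 hr and 4 hr replicate 2, and each library left out in turn. The exclusion of the 2 libraries richest in yolk reads was chosen after seeing the data. The 8 members and 13 lists, of which 146 of 147 entries matched the table, were chosen with earlier results of these data known. Named genes are the members, list genes with the highest means and the genes nearest to each member (read in at least 18 libraries). The reference annotation, of a later build, served for names and neighbours only. Replicate numbers have no stated meaning. Deviations of same-numbered libraries correlated above 0.1 in all 3 pairs for male-labelled control with 1 hr (0.106 to 0.341) and 2 hr (0.164 to 0.532), and for no other comparison with control. Between times after TBI they did so for female-labelled 2 hr with 4 hr (0.128 to 0.605) and male-labelled 1 hr with 2 hr (0.150 to 0.409).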

Additional observations from a re-analysis of the deposited data

How the results depend on the processing

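Called genes numbered 0 in all 11 comparisons. Without the filter on low counts they numbered 2, 95 and 13 in female-labelled flies at 1, 2 and 4 hr, 1 and 7 in male-labelled flies at 2 and 4 hr, 27 and 6 for the label difference in the change at 2 and 4 hr, 1 between controls and 10 between labels over all conditions, the latter including Yp1, Yp2 and Yp3 (adjusted p 8.97e-06, 6.62e-06 and 1.39e-05). Yp2 at 1 hr and Yp1, Yp2 and Yp3 at 2 hr in female-labelled flies were also called without the filter. DESeq2 called 27 at 2 hr in female-labelled flies, 4 for the label difference at 2 hr and 4 between labels. Leaving out a library gave 0 to 20 at 2 hr in female-labelled flies, 0 to 3 for the label difference at 2 hr and 0 to 1 between labels, the highest each time without female-labelled 2 hr replicate 1. The cause of these shifts was not tested. Limma-voom with sample weights called none and gave smaller differences between labels (0.98, 1.19 and 1.21 for Yp1, Yp2 and Yp3), and in female-labelled flies after TBI it gave 0.26, 0.70 and 0.34 at 1 hr and 0.39, 0.90 and 0.02 at 2 hr. With a replicate block the label differences were 1.71, 1.98 and 2.02, the male-labelled 1 hr values of Yp1 and Yp2 were 0.92 and 0.94, and no call changed in any comparison.

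Of 722 alternative values for the 28 member values in the text, 702 kept their sign and their side of the threshold and 10 passed it. The 10 of opposite sign were Apoltp at 2 hr in female-labelled flies with limma-voom (-0.50), Apoltp between labels with limma-voom (-0.11) and without the 2 yolk-rich libraries (-0.31), Yp3 in the label difference at 2 hr with limma-voom (-0.063), and left-out libraries for Yp3 at 4 hr (range -0.26 to 1.63), Yp2 and Yp3 between controls (-0.25 to 0.71 and -0.42 to 1.30) and Apoltp between labels (-0.040 to 0.39). Over all 80 fitted member values, most of them not printed, 35 had the opposite sign in at least 1 alternative. Of 28 pairs, 4 in place of 7 passed by rho in female-labelled libraries without 2 hr and 4 hr replicate 2, and 2 in place of 1 in male-labelled libraries scaled by library size alone. With 3 libraries a group and 46943 counts in the shallowest, changes in fit and Apoltp were near the limit of depth.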

Other observations

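The genes whose levels most resembled those of the members over the 24 libraries were ranked by Spearman's rho among 5622 genes, as a description. For the sum of Yp1, Yp2 and Yp3 they were AttB (rho = 0.79) and Mtk (0.77), which encode the antimicrobial peptides attacin B and metchnikowin, followed by Obp99a (0.76), an odorant-binding protein gene, Rpb8 (0.76), a shared subunit gene of the RNA polymerases, and dod (0.76). AttB ran from 0 to 3172 CPM with a median of 41.0 CPM. Mtk ran from 61.3 to 10876 CPM with a median of 174 CPM. Of these 5 genes AttB, Mtk, Obp99a and Rpb8 were highest in the female-labelled 2 hr replicate 2, the library that also held the most Yp3. Between the labels over all 4 conditions their log2FCs were 1.24 (SE 0.66) for AttB, 1.37 (SE 0.45) for Mtk and 1.53 (SE 0.62) for Obp99a, with an edgeR adjusted p of 0.957 for each.

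For apolpp the nearest genes were eIF-2beta (0.96), a translation initiation factor subunit gene, Cngl (0.94), a cyclic nucleotide-gated channel gene, and p120ctn (0.91), an adherens junction gene. For Lsp2 they were Mid1 (0.92), Lsd-2 (0.90), which encodes a lipid droplet protein of the fat body, and CG4753 (0.89). For Tsf1 they were Spn88Ea (0.84), a serpin gene, Cpr67B (0.79) and CG5167 (0.76). For Apoltp they were CG7966 (0.83), CG42369 (0.78) and CG4408 (0.78), each highest in male-labelled control replicate 2. No gene is named for fit, which was read in 8 of 24 libraries.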
